A study of Mus musculus with 6 samples.

Results

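Acod1, the gene of the enzyme that makes itaconate, was examined together with 6 genes: Cs, Idh2, Idh3a, Sdha, Sdhb and Slc25a1. Cs encodes the enzyme that makes citrate, and Idh2, Idh3a and Slc25a1 belong to steps that draw on the same citrate. Sdha and Sdhb encode subunits of the enzyme that itaconate inhibits. These 6 are called citrate cycle genes below, although Slc25a1 encodes a carrier. The 7 genes were found by symbol among the 29595 genes of the expression table. They were selected by name with earlier results of the same comparison in view, so their values are given below as a description without p-values. TKPTS cells, a mouse kidney proximal tubule cell line, were transfected with pcDNA3.1-Hnf3a-Flag (the Hnf3a group) or with the empty pcDNA3.1-Flag (the pcDNA group). RNA was collected after 24 h and sequenced, with 3 libraries per group. No other treatment is given for these libraries, and both groups share the line and the plasmid backbone. The labels do not say whether replicates were separate cultures, so p-values measure only the spread between these libraries, which may be technical.

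Acod1 removes a carboxyl group from cis-aconitate, an intermediate between citrate and isocitrate in the cycle, and the product is itaconate. Itaconate is known chiefly from activated macrophages, where it is antimicrobial, inhibits succinate dehydrogenase and modifies Keap1, the brake on the antioxidant factor Nrf2. Its synthesis draws on the same citrate that feeds the isocitrate dehydrogenases of the cycle and that the citrate carrier Slc25a1 exports to the cytosol.

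Totals ranged from 60473818 to 71154667 estimated counts per library. Of the 17824 genes that passed the filter on low counts, 565 (3.17%) passed the edgeR threshold of an adjusted p of 0.05, of which 186 (1.04%) were higher and 379 (2.13%) lower in the Hnf3a group. The median log2 fold change over all tested genes was 0.000845. Foxa1, the gene of HNF3α, was at 334, 296 and 284 FPKM (fragments scaled to transcript length and library size) in the Hnf3a libraries and at 9.49, 9.54 and 9.96 FPKM in the pcDNA libraries. Its log2 fold change of 4.97 (SE 0.067, adjusted p = 5.99e-10, edgeR) fits the labels of all 6 libraries, and plasmid and endogenous transcripts were not separated. Krt8, Krt18, Epcam, Cdh1, Pax8 and Cdh16 summed to 594 to 649 FPKM in every library. The 6 proximal tubule genes of the table summed to only 1.23 to 1.68 FPKM. Of these, Lrp2, Cubn, Slc5a2 and Hnf4a stayed at or below 0.0699 FPKM in every library, Ggt1 was at 0.18 to 0.365 FPKM and Aqp1 at 0.844 to 1.23 FPKM. Slc34a1 and Slc22a6 were not analysed here. Of the 6 epithelial genes, 1 was higher in the Hnf3a group by edgeR, the keratin Krt18 (log2 fold change 0.20, SE 0.029, adjusted p = 0.00148), and of 5 tested proximal tubule genes none passed. Hnf3a replicates 2 and 3 stood apart with low levels of macrophage genes, which are set beside Acod1 at the end.

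To show how the promoter of Acod1 differs in sequence from that of a cycle enzyme, the stretch from 250 to 21 bases before the RefSeq start is printed for Acod1 (GRCm38.p6, chr14:103046762-103046991, plus strand) and for Cs (chr10:128337477-128337706, plus strand). Capitals mark matches to TATAAA (the TATA box) and GGNNNTTCC (an NF-kB pattern) in Acod1, and to GGNNNTTCC and GGGCGG (the GC box) in Cs, each on either strand.
Acod1: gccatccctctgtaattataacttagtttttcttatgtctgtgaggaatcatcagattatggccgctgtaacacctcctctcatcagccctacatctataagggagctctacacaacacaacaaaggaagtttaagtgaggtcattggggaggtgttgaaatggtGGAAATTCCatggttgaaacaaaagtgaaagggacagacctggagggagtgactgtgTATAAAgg
Cs: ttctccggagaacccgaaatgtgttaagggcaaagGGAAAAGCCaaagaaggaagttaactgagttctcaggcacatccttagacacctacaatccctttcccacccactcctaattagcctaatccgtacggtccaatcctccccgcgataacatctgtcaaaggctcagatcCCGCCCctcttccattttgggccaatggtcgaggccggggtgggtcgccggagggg

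The Acod1 promoter held TATAAA from 28 to 23 bases before the start and GGAAATTCC, which matches the NF-kB pattern on both strands, from 85 to 77 bases before it. In the GENCODE annotation Acod1 starts 35 bases upstream of the RefSeq start, so by that annotation the TATAAA lies inside the first exon. RefSeq promoters of 6 of the 7 genes were matched (all but Idh3a), each running from 250 bases before to 50 bases after the start. Within this window Acod1 had 2 CpG dinucleotides and 47.0% GC, against 15 to 30 CpG and 58.7% to 69.3% GC in the other 5. The median over all 32851 promoters was 7 CpG and 52.7% GC, and 23.3% of promoters had no more CpG than Acod1. TATAAA occurred in 13.6% of all promoters and, among the 6 matched genes, in Acod1 alone. GGGCGG occurred in 35.7% of all promoters and in Cs, Idh2, Sdhb and Slc25a1, while GGNNNTTCC occurred in 18.5% and in Acod1, Cs and Sdhb. The forkhead pattern TGTTTNC, found in 20.5% of all promoters, had a match in Sdha and none in this window of Acod1. TTGCNNCAA (C/EBP, 2.08% of all promoters) and TGANTCA (AP-1, 7.81%) had no match in any of the 6. All 6 patterns were searched on both strands and were chosen after the sequences were seen. A match is a run of letters and was not tested as a binding site.

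Acod1 (ENSMUSG00000022126) spans chr14:103046977-103056573 on the plus strand of GRCm38, with 5 exons and no overlapping gene in GENCODE vM21. It was at 54.8, 56.0 and 59.8 FPKM in Hnf3a replicates 1, 2 and 3, and at 95.8, 93.7 and 93.5 FPKM in pcDNA replicates 1, 2 and 3. Every Hnf3a library was below every pcDNA library, and the gap of over 30 FPKM between the groups was far wider than the range within either. The means were 56.9 ± 2.61 and 94.3 ± 1.26 FPKM (SD, n = 3 per group). The fit gave a level 40.1% lower in the Hnf3a group, which is a log2 fold change of -0.74 (SE 0.036, 95% interval -0.82 to -0.66), resting on 10450 to 11630 estimated counts per Hnf3a library against 16975 to 18033 per pcDNA library. Ranked by mean FPKM over the 17824 tested genes, Acod1 stood at place 438 in the pcDNA group and place 815 in the Hnf3a group. Of all genes tested, 454 (2.55%) had a log2 fold change as low as that of Acod1 or lower, and 87 of these had a mean of at least 1 FPKM in the pcDNA group.

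**Figure D1:**
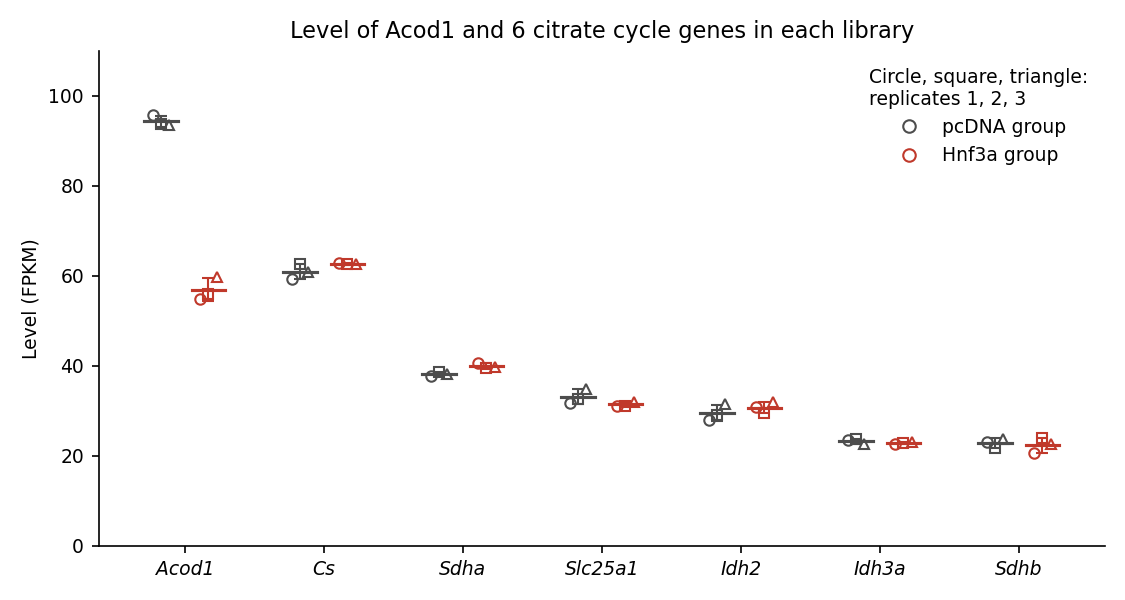
Level in FPKM (y axis) of Acod1 and the 6 citrate cycle genes (x axis) in each library, with circles, squares and triangles for replicates 1, 2 and 3, bars at the group means and error bars of 1 SD (n = 3). Acod1 lies at 54.8 to 59.8 FPKM in the Hnf3a group and at 93.5 to 95.8 FPKM in the pcDNA group, while the groups of the other genes lie close to each other.

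Cs (ENSMUSG00000005683) encodes citrate synthase, which makes the citrate that enters the cycle. It was at 62.9, 62.7 and 62.5 FPKM in Hnf3a replicates 1, 2 and 3 and at 59.2, 62.5 and 60.9 FPKM in the pcDNA replicates. The groups met at 62.5 FPKM and overlapped in CPM, the count scaled to library size. Cs had a log2 fold change of 0.03 (SE 0.029, 95% interval -0.03 to 0.10). Cs lies at chr10:128337734-128362479 on the plus strand with 11 exons, and the small gene Gm23182 overlaps it on the same strand. Its near copy Csl had at most 13 estimated counts in any library, against 23126 to 28700 for Cs.

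Idh3a and Idh2 stand for the branch that oxidizes isocitrate. Idh3a (ENSMUSG00000032279, chr9:54586334-54604661, plus strand, 12 exons) encodes the catalytic subunit of the NAD-dependent enzyme. Its levels were 22.6, 22.8 and 23.1 FPKM in the Hnf3a libraries and 23.4, 23.6 and 22.6 FPKM in the pcDNA libraries, which overlap. For Idh3a the log2 fold change was -0.03 (SE 0.034, 95% interval -0.10 to 0.04). Idh2 (ENSMUSG00000030541, chr7:80094846-80115392, minus strand, 11 exons), the mitochondrial NADP-dependent enzyme, was at 30.8, 29.4 and 32.0 FPKM against 27.9, 29.0 and 31.4 FPKM. Here too the libraries of the groups were interleaved, and the spread within a group, a CV of 4.24% and 6.06%, exceeded the fitted difference of 3.60% between the groups. Idh2 had a log2 fold change of 0.05 (SE 0.047, 95% interval -0.05 to 0.15), and Gm45203 overlaps it on the same strand.

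Sdha and Sdhb encode the flavoprotein and the iron-sulfur subunit of succinate dehydrogenase, the enzyme that itaconate inhibits. Sdha (ENSMUSG00000021577, chr13:74322254-74350280, minus strand, 15 exons) was at 40.6, 39.4 and 39.8 FPKM in the Hnf3a libraries and at 37.7, 38.6 and 38.1 FPKM in the pcDNA libraries. All Hnf3a libraries were thus above all pcDNA libraries, by a narrow margin. The means of Sdha were 39.9 ± 0.621 and 38.2 ± 0.464 FPKM (SD, n = 3 per group), and the log2 fold change was 0.06 (SE 0.031, 95% interval -0.01 to 0.12). Gm16125 overlaps Sdha on the other strand, and whether the counting used strand is not given in the sources used here. Sdhb (ENSMUSG00000009863, chr4:140961203-140979193, plus strand, 8 exons) was at 20.5, 23.9 and 22.6 FPKM against 23.1, 21.6 and 23.8 FPKM, the widest relative spread of the 7 genes in the Hnf3a group (CV 7.57%). The groups overlapped, with a log2 fold change of -0.04 (SE 0.056, 95% interval -0.16 to 0.08).

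Slc25a1 (ENSMUSG00000003528, chr16:17925223-17928219, minus strand, 9 exons) encodes the carrier that moves citrate out of the mitochondrion. It was at 31.1, 31.1 and 32.0 FPKM in the Hnf3a libraries and at 31.7, 32.7 and 34.9 FPKM in the pcDNA libraries. The groups overlapped only between the highest Hnf3a and the lowest pcDNA library. Slc25a1 had a log2 fold change of -0.08 (SE 0.041, 95% interval -0.17 to 0.01), the largest in size of the 7 after that of Acod1.

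Of the 7 genes, 3 had a log2 fold change above 0 and 4 below, with a median of -0.03. The groups did not overlap in CPM for 2 of them, Acod1 and Sdha, while 18.9% of all tested genes had groups that did not overlap. The 6 cycle genes without Acod1 summed to 209, 209 and 212 FPKM in the Hnf3a libraries and to 203, 208 and 212 FPKM in the pcDNA libraries, and their median log2 fold change was 0.003. Over these 6 genes the outermost ends of the 95% intervals were -0.17 (Slc25a1) and 0.15 (Idh2) on the log2 scale. Differences within a gene's own interval were not resolved. In the pcDNA group the order of levels per length was Acod1, Cs, Sdha, Slc25a1, Idh2, Idh3a and Sdhb. In the Hnf3a group Cs stood above Acod1, without overlap of their libraries, and the order of the rest was the same. Idh3a and Sdhb overlapped in both groups, and Slc25a1 and Idh2 overlapped in the Hnf3a group and lay next to each other in the pcDNA group (lowest Slc25a1 31.7 FPKM, highest Idh2 31.4 FPKM).

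As follows from the levels above, Acod1 was lower relative to Cs, Idh3a, Idh2 and Sdha of the same library, which is no separate result. The ratio of Acod1 to Cs in FPKM was 0.871, 0.893 and 0.957 in Hnf3a replicates 1, 2 and 3, against 1.62, 1.5 and 1.53 for pcDNA. Acod1 was thus above the transcript of citrate synthase in every pcDNA library and below it in every Hnf3a library. Its ratio to Idh3a was 2.49 ± 0.0890 in the Hnf3a group and 4.07 ± 0.0919 in the pcDNA group (SD, n = 3 per group). The ratios to Idh2 and Sdha were 1.85 and 1.43 in the Hnf3a group and 3.21 and 2.47 in the pcDNA group. These are ratios of transcript levels, and neither enzyme activity nor itaconate was measured.

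The wider citrate cycle was read from 13 further enzyme genes, none of which passed the edgeR threshold (3.17% of all tested genes did). Their log2 fold changes ran from -0.06 to 0.10, with a median of 0.02. Suclg2, a subunit of succinyl-CoA ligase, had the highest log2 fold change of the list, 0.10 (SE 0.039, adjusted p = 0.255). Of the membrane anchors of succinate dehydrogenase, Sdhc was at 19.2 and 19.1 FPKM and Sdhd at 77.4 and 75.6 FPKM in the Hnf3a and pcDNA groups.

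**Figure D2:**
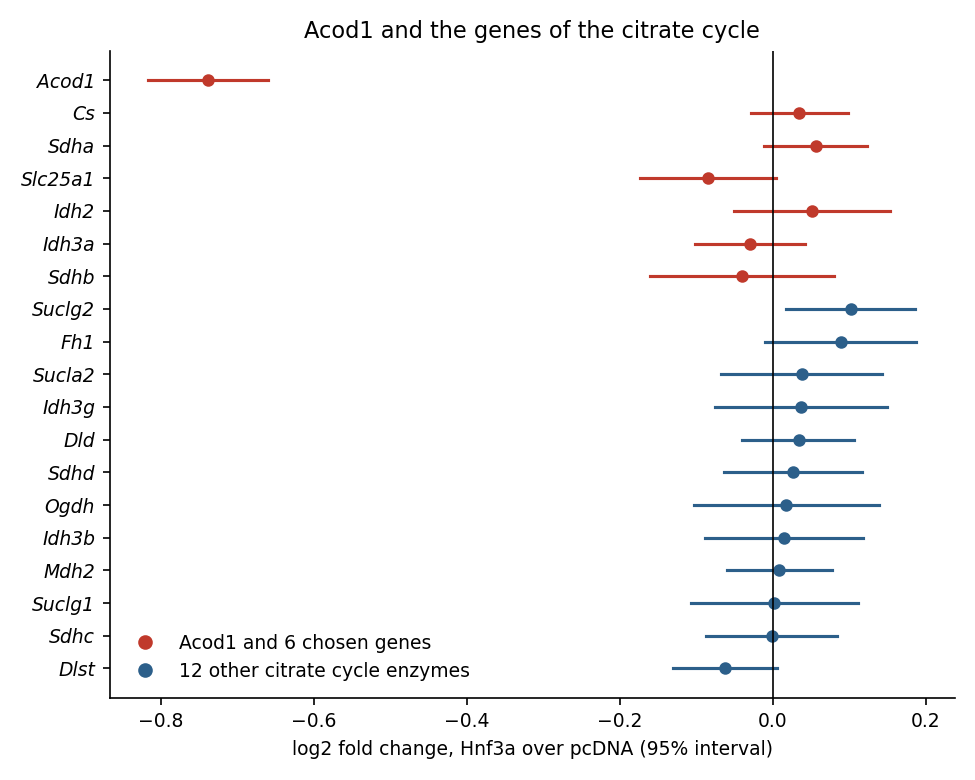
Log2 fold change of the Hnf3a group over the pcDNA group (x axis) with its 95% interval for Acod1 and the 6 chosen genes (red) and 12 of the 13 other citrate cycle enzymes (blue). Acod1 lies at -0.74, and the other genes shown lie between -0.08 and 0.10.

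Genes that feed the cycle or move its products were equally without calls. Of 15 tested genes of pyruvate entry and anaplerosis, 0 passed the threshold, and the smallest adjusted p was that of Pdp1, a phosphatase that activates pyruvate dehydrogenase, with a log2 fold change of -0.25 (SE 0.074, adjusted p = 0.109). Of 10 tested carriers and cytosolic enzymes of citrate use, 0 passed. Acly, which splits exported citrate into acetyl-CoA, was at 83.3 ± 2.35 FPKM in the Hnf3a group and 84.0 ± 1.51 FPKM in the pcDNA group (SD, n = 3 per group). Idh1, the cytosolic isocitrate dehydrogenase, had a log2 fold change of 0.12 (SE 0.059, adjusted p = 0.425), and Slc13a3 was not analysed here. The enzymes of itaconate breakdown were low, with Auh at 1.10, Clybl at 0.919 and Sugct at 0.115 FPKM in the pcDNA group, and none of the 3 passed. None of 4 assembly factors of succinate dehydrogenase passed either. Over all 45 tested genes of these 5 lists, edgeR called 0 at the adjusted threshold, beside 3.17% of all tested genes. In lists of this size a count of 0 lies near that share. DESeq2 and limma also called 0. Their median log2 fold change was 0.02, with 29 above 0 and 16 below.

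The genes whose pattern over the 6 libraries was nearest to that of Acod1 were sought among all tested genes, by the distance of log2 CPM centred on the pcDNA mean. The 5 nearest were Ltbp2, Cxcl2, Gbp5, Tlr2 and Hcar2, at distances of 0.128, 0.145, 0.16, 0.162 and 0.165. Cxcl2 encodes a neutrophil-attracting chemokine, Tlr2 a receptor for bacterial lipoproteins, Gbp5 an interferon-induced GTPase, Hcar2 a receptor for hydroxybutyrate and niacin, and Ltbp2 an extracellular matrix protein. Cxcl2 was at 40.2, 42.9 and 42.1 FPKM in the Hnf3a libraries and at 71.4, 68.1 and 63.4 FPKM in the pcDNA libraries. Tlr2 was at 13.5, 14.6 and 13.6 FPKM against 24.4, 22.8 and 21.9 FPKM. As with Acod1, the groups of both genes lay well apart. Means of the Hnf3a and pcDNA groups were 6.08 and 9.58 FPKM for Gbp5, 9.41 and 15.2 FPKM for Hcar2, and 2.32 and 3.98 FPKM for Ltbp2. The log2 fold changes of the 5 genes lay between -0.79 and -0.67, which their choice by likeness to Acod1 fixes, so no test is given.

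**Figure D3:**
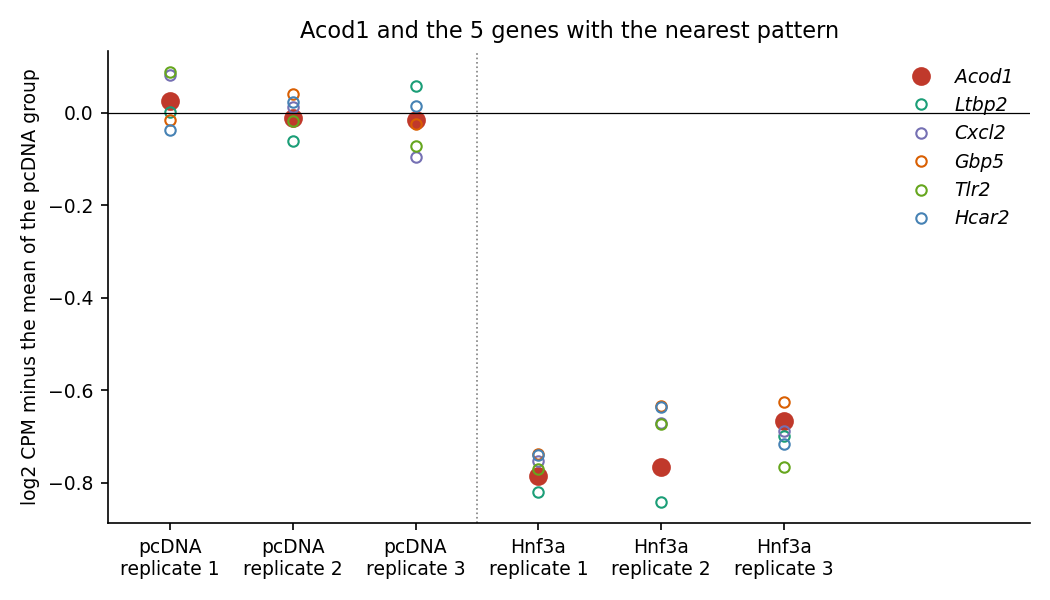
Log2 CPM minus the mean of the pcDNA group (y axis) in each of the 6 libraries (x axis) for Acod1 (filled red) and the 5 genes nearest to it (open circles). Acod1 lies at -0.79, -0.77 and -0.67 in Hnf3a replicates 1, 2 and 3, and between -0.02 and 0.03 in the pcDNA libraries.

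Acod1 is known to be induced by Toll-like receptor, NF-kB and interferon signalling, and 13 genes of that control were read. Of these, 3 were lower in the Hnf3a group by edgeR and 0 higher, beside 2.13% and 1.04% of all tested genes. The list was chosen with earlier results of these data known, so the count is a description. Nfkb1, a subunit of NF-kB, was at 20.8, 20.8 and 19.0 FPKM in the Hnf3a libraries and at 25.3, 25.1 and 24.7 FPKM in the pcDNA libraries. It fell without overlap of the groups, with a log2 fold change of -0.32 (SE 0.037, adjusted p = 0.000183). Tnfaip3, an NF-kB target that restrains the pathway, was at 7.08, 7.47 and 7.02 FPKM against 9.59, 9.15 and 8.80 FPKM, and its log2 fold change was -0.36 (SE 0.044, adjusted p = 0.000327). Irf1, an interferon-responsive transcription factor known to drive Acod1, was at 30.5, 31.8 and 31.3 FPKM against 35.7, 34.7 and 34.0 FPKM. The groups did not overlap for Tnfaip3 and Irf1 either. The log2 fold change of Irf1 was -0.16 (SE 0.034, adjusted p = 0.0161, edgeR). The call of Irf1 was lost without Hnf3a replicate 2 (adjusted p = 0.0757), without pcDNA replicate 1 (0.11), without pcDNA replicate 2 (0.0893) and with limma on FPKM (0.066 to 0.0686).

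The other 10 genes of this control did not pass the threshold. Rela, the other main NF-kB subunit, had a log2 fold change of -0.03 (SE 0.052, adjusted p = 0.903). Tlr4, the receptor for lipopolysaccharide, was at 4.78 and 4.67 FPKM in the Hnf3a and pcDNA groups. Cebpb, a factor of inflammatory gene induction, was at 63.5 and 65.7 FPKM. Tfeb, at 1.03 and 0.812 FPKM, had the highest log2 fold change of the list, 0.34 (SE 0.12, adjusted p = 0.193, edgeR). Its groups did not overlap, with the Hnf3a libraries above. The median log2 fold change of the 13 genes was -0.06, with 3 above 0 and 10 below.

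On the side of the response, 11 genes linked to itaconate in macrophages were read, and 1 was lower by edgeR and 0 higher, beside 2.13% and 1.04% of all tested genes. Nfkbiz, whose product IkB-zeta is known to be restrained by itaconate derivatives, was at 22.6, 22.6 and 22.4 FPKM in the Hnf3a libraries and at 31.4, 31.5 and 31.3 FPKM in the pcDNA libraries. The spread within each group was below 1 FPKM, and Nfkbiz fell by 0.49 on the log2 scale (SE 0.031, adjusted p = 7.64e-07). The restraint named is of the protein. Whether the fall of the transcript is linked to Acod1 or itaconate was not tested. The Keap1 and Nrf2 branch did not pass. Nfe2l2, the gene of Nrf2, was at 21.7 ± 0.693 and 22.5 ± 0.715 FPKM in the Hnf3a and pcDNA groups (SD, n = 3 per group), with an adjusted p of 0.59. Its target Hmox1 was at 29.2 ± 1.61 and 29.3 ± 0.867 FPKM (SD, n = 3 per group), with an adjusted p of 0.953, and Keap1 had a log2 fold change of -0.12 (SE 0.043, adjusted p = 0.24). The groups of Keap1 did not overlap, with the Hnf3a libraries below. Those of Gclm did not overlap either, with the Hnf3a libraries above (log2 fold change 0.08, SE 0.036, adjusted p = 0.329, edgeR). The groups of Gclc, Txnrd1 and Nqo1 overlapped. Nlrp3, an inflammasome sensor, had 17, 30 and 24 estimated counts in Hnf3a replicates 1, 2 and 3, against 4, 14 and 6 for pcDNA. These counts are near the detection floor of 12 estimated counts, about 3 fragments, and the difference did not pass (adjusted p = 0.281). Over both lists together 4 of 24 genes passed, all lower in the Hnf3a group (3.17% of all tested genes passed, 2.13% as lower). Both lists were chosen with earlier results of these data known, so this count is a description and does not test the lists. The 24 genes had a median log2 fold change of -0.04.

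**Figure D4:**
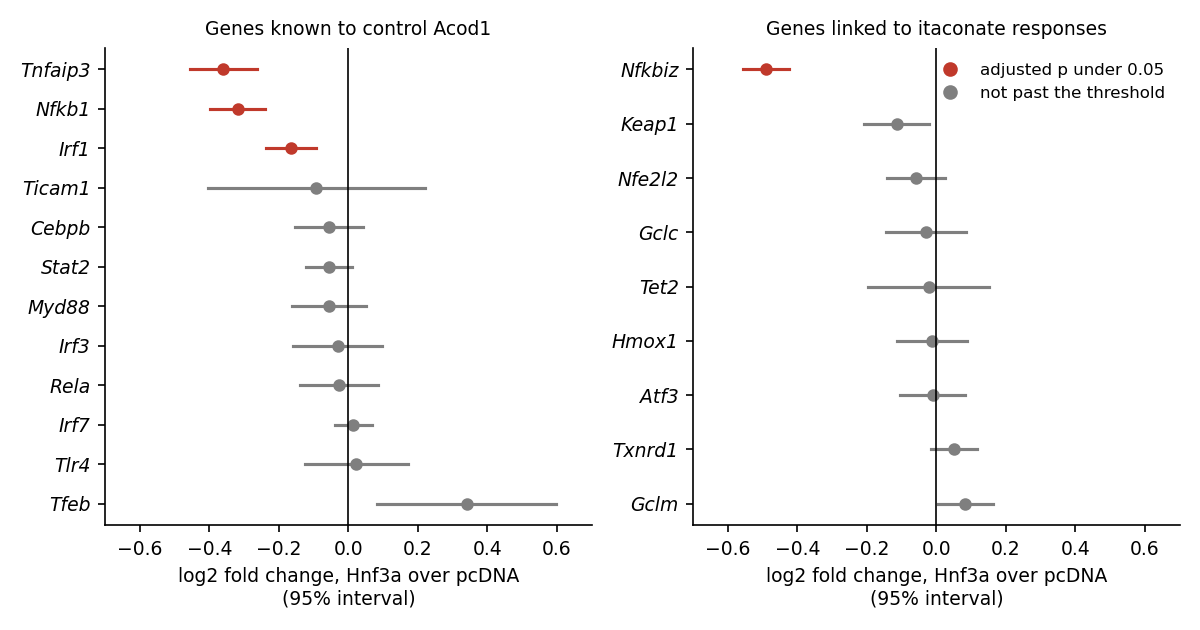
Log2 fold change of the Hnf3a group over the pcDNA group (x axis) with its 95% interval for 12 of the 13 genes known to control Acod1 (left) and 9 of the 11 genes linked to itaconate responses (right, without the low-count Nlrp3 and Nqo1). Red marks an adjusted p under 0.05 by edgeR, which Tnfaip3, Nfkb1, Irf1 and Nfkbiz have, all at negative values.

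Because Acod1 is known from macrophages, the markers of these cells were read beside it. Ptprc, which marks blood cells, had 3, 31 and 14 estimated counts in Hnf3a replicates 1, 2 and 3 and 0, 7 and 4 in the pcDNA replicates. C1qa, a macrophage complement gene, had 0, 27 and 27 counts against 0, 0 and 0. Adgre1 had 9, 41 and 38 counts against 0, 8 and 0, and Tyrobp had 0, 15 and 25 counts against 0, 0 and 0. In the pcDNA libraries, where Acod1 was at 93.5 to 95.8 FPKM, these 4 genes were below the floor of 12 counts. They were also below it in Hnf3a replicate 1, where Acod1 was at 54.8 FPKM, beside 56.0 and 59.8 FPKM in Hnf3a replicates 2 and 3. Of the list, 5 other genes were above the floor in all 6 libraries. Cd68, a lysosomal protein, had 993 to 1178 counts, Mpeg1 1267 to 1633, the receptor gene Csf1r 554 to 853, the transcription factor gene Spi1 46 to 109 and Aif1 17 to 31. The lysozyme gene Lyz2 had 0 counts in Hnf3a replicate 1, 265 and 273 in the other Hnf3a libraries and 6 to 44 in pcDNA. Of 18 macrophage genes, 6, 17 and 17 were above the floor in the Hnf3a replicates and 7, 8 and 7 in the pcDNA replicates, and their summed levels were 18.0, 23.1 and 25.2 FPKM against 20.3, 19.9 and 18.5 FPKM. Of the list, 11 genes were tested, and 8 had a log2 fold change above 0 and 3 below, with a median of 0.816. By edgeR 1 of them passed the threshold, beside 3.17% of all tested genes. It was the perforin-like Mpeg1, with a log2 fold change of -0.33 (SE 0.060, adjusted p = 0.00759). Of 9 neutrophil genes, 2 to 5 were above the floor in a library, and none of 4 tested passed. Their summed levels were 14.5 to 17.5 FPKM in the Hnf3a group and 15.3 to 16.5 FPKM in the pcDNA group. Most of each sum was Ly6g, at 13.5 to 16.3 FPKM in the Hnf3a group and 13.8 to 15.7 FPKM in the pcDNA group. No other gene of this list was above 1.34 FPKM in any library. The part of macrophage or neutrophil RNA in the Acod1 values was not tested. With Hnf3a replicate 1 alone against the 3 pcDNA libraries, in a fit that assumes it to vary as they do, Acod1 had a log2 fold change of -0.78. In the same fit 3 of the 24 control and response genes passed, without Irf1 (adjusted p = 0.0686), and 0 of the 45 pathway genes. In bulk RNA, fewer cells that express Acod1 and less Acod1 RNA per cell cannot be told apart.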

How the data were processed

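RNA of 6 TKPTS libraries (3 Hnf3a, 3 pcDNA) was measured by paired-end sequencing of polyadenylated RNA with strand marking and molecular identifiers, per the labels. The authors deposited 1 table of 29595 genes that gives each gene an FPKM value and an estimated count per library. The submitters' processing notes name cutadapt 1.9, HISAT2 2.0.4, UMI-tools, StringTie 1.3.4d, DESeq2, edgeR and the mm10 build, without settings. Gene coordinates were those of the table, and 26766 of the 29514 that GENCODE vM21 also lists were identical there, which places the table on GRCm38. Whole-number counts pile up at 4, so 1 fragment may be worth about 4 counts, and the floor was set at 12 counts. Floors cover counting error only.

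Genes were filtered with filterByExpr, scaled by TMM and tested two-sided with the quasi-likelihood test of edgeR 4.0.16 (robust, no covariate) in R 4.3.3. The Benjamini-Hochberg adjustment ran over all 17824 genes, with a threshold of 0.05. Fold changes, with their standard errors and 95% intervals, are of counts, and levels are FPKM. With 3 libraries against 3, an exact permutation test cannot go below a p of 0.1. No pair of libraries was identical.

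Groups and replicate numbers came from the labels. The numbers did not pair the libraries: deviations from the group means correlated at -0.0411, -0.0102 and 0.00998 between libraries of the same number. The 7 genes, the gene lists (citrate cycle enzymes, pyruvate entry and anaplerosis, carriers and cytosolic citrate use, itaconate breakdown, succinate dehydrogenase assembly, Acod1 regulation, itaconate response, mitochondrially encoded genes, and markers of proximal tubule, epithelium, macrophages and neutrophils) were chosen with earlier results of these data known. Named were the 7 genes, Foxa1, list genes past the threshold (at most 6 per list), up to 4 further genes of a list by role, and the 5 genes nearest to Acod1 by Euclidean distance of centred log2 CPM (prior count 2). Other names were chosen after their values were seen. Alternatives were DESeq2 1.42.0, limma 3.58.1 on log2(FPKM + 0.1), (+ 1) and (+ 0.01), other scalings and filters, counts divided by 4, a replicate block, leaving out each library and, added after seeing the data, leaving out Hnf3a replicates 2 and 3. Of the listed genes, 2 are counted within their lists and not reported here by name.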

Additional observations from a re-analysis of the deposited data

How the results depend on the processing

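The log2 fold change of Acod1 lay between -0.78 and -0.72 under 16 other settings. That of Cs, Idh2 and Sdha was above 0 and that of Idh3a and Slc25a1 below 0 under all 16, and that of Sdhb was below 0 under 15 and above 0 under 1. No pathway gene outside the 7 passed under any alternative, and 3 or 4 of the 24 control and response genes did. Nfkb1, Tnfaip3 and Nfkbiz passed under all 16, with adjusted p up to 0.0187, 0.0245 and 0.000292, and Irf1 was lost under 6. The 565 genes past the threshold became 236, 231 and 245 with limma on log2(FPKM + 0.1), (+ 1) and (+ 0.01), and 819 with DESeq2. Leaving out 1 library gave 263 to 643 genes, the lowest without Hnf3a replicate 2 and the highest without Hnf3a replicate 1, and 286, 267 and 349 genes when pcDNA replicate 1, 2 or 3 was left out. With Hnf3a replicate 1 alone against the pcDNA group, a setting chosen after seeing the data because the other two Hnf3a libraries held macrophage genes, 353 genes passed, and Sdha and Sdhb moved to 0.089 and -0.153. The cause was not tested. Although the replicate numbers did not pair the libraries, a replicate block gave 463 genes and -0.74 for Acod1. No scaling moved the median of all genes by more than 0.013 on the log2 scale. With 3 libraries a group, differences of a cycle gene within its own 95% interval were not resolved, and genes near 12 counts carry little information.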

Other observations

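The 13 protein-coding genes of the mitochondrial genome, which encode subunits of the respiratory chain and ATP synthase, were read as a further list. By edgeR 2 were higher in the Hnf3a group and 0 lower (1.04% and 2.13% of all tested genes). Of the 13 log2 fold changes, 12 were above 0, with a median of 0.08 (49.8% of all tested genes were below 0). The groups did not overlap in CPM for 6 of the 13 (18.9% of all tested genes). As genes of the same genome the 13 are not independent, so these counts are a description. Summed levels were 18000, 17700 and 17700 FPKM in Hnf3a replicates 1, 2 and 3. In pcDNA replicates 1, 2 and 3 they were 18000, 16700 and 16700 FPKM, so pcDNA replicate 1 was not below the Hnf3a libraries. mt-Nd4l, a subunit of complex I, was at 406, 386 and 394 FPKM in the Hnf3a libraries and at 350, 347 and 355 FPKM in the pcDNA libraries, a log2 fold change of 0.17 (SE 0.034, adjusted p = 0.0172). mt-Cytb, a subunit of complex III, was at 997, 961 and 973 FPKM against 922, 858 and 829 FPKM, a log2 fold change of 0.16 (SE 0.036, adjusted p = 0.0314). mt-Co2 had a log2 fold change of -0.06 (SE 0.051, adjusted p = 0.743).

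Both calls were lost under some alternatives. That of mt-Nd4l was lost under 6 of 16 alternatives (adjusted p up to 0.123, without pcDNA replicate 2), also without pcDNA replicate 1 (0.0963), without pcDNA replicate 3 (0.0632) and with limma (0.0531 to 0.0658). That of mt-Cytb was lost under 8, with adjusted p of 0.0892, 0.1 and 0.086 without Hnf3a replicates 1, 2 and 3, 0.189 and 0.168 without pcDNA replicates 2 and 3, and 0.201 to 0.232 with limma. The libraries were made from polyadenylated RNA, and the part of that selection in these values was not tested.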
